A study of Mus musculus with 144 samples.

Results

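The response of hepatocytes to TCDD (the dioxin 2,3,7,8-tetrachlorodibenzo-p-dioxin) was examined after 8 h in the libraries labelled with a deletion of the dioxin response element (DRE) of *Pkm*, here called PkmΔDRE. The members were taken from the labels alone. They were the 4 libraries that received 10 nM TCDD and the 4 that received the dimethyl sulfoxide (DMSO) vehicle, 8 of the RNA-Seq libraries of a study with 36 groups of 4. The cells were hepatocytes from the livers of male mice given as 28 days old, of the strain named Pkm-delta-DRE for PkmΔDRE and C57BL/6NCrl for the wild type (WT). The PkmΔDRE line carries a CRISPR-Cas9 deletion of an intronic DRE in every tissue, and all 8 libraries of the comparison carry that label, vehicle included. The whole study crossed both labels and both treatments with 9 times from 2 to 120 h. The labels do not say how many animals or hepatocyte isolations the libraries came from, so p-values measure the spread between these libraries, which may be technical. The labels also describe the culture in 2 ways, as a 12-well plate with 500000 cells and, in the protocol, as a 6-well plate. The number of uniquely mapped read pairs on each gene was deposited without normalization, and it ranged from 15209939 to 19070548 pairs per library over all genes.

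TCDD is a ligand of the aryl hydrocarbon receptor (AHR), a transcription factor that waits in the cytoplasm bound to chaperones. With ligand it enters the nucleus, pairs with its partner ARNT and binds DREs, whose core reads GCGTG. In liver its best known targets encode enzymes of xenobiotic metabolism, led by *Cyp1a1* and *Cyp1a2*, together with the feedback proteins AHRR and TIPARP, which restrain the receptor.

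After 8 h, 13 of the 12293 genes tested were differentially expressed (DEGs, an adjusted p below 0.05 and a fold change of at least 1.5), a share of 0.106%. All 13 were higher with TCDD, and none was lower. The 12 described here were the cytochromes *Cyp1a1* and *Cyp1a2*, the flavin monooxygenase *Fmo2*, the quinone reductase *Nqo1*, the selenium-binding protein *Selenbp1*, the lysosomal transporter *Slc46a3*, the protease *Ecel1*, the kinase *Dclk3*, the small GTPase *Rab30*, the early response gene *Ier3*, the gasdermin *Gsdme* and the RIKEN transcript *4931440P22Rik*. In each of the 13, all TCDD libraries lay above all vehicle libraries. Since they were called on these same libraries, this is in large part the choice. Such a complete separation was seen in 180 genes tested with TCDD above (1.46%) and in 77 with TCDD below (0.626%). The share of unique pairs that fell on no gene also moved with treatment. It was 4.20%, 6.27%, 5.25% and 4.62% in vehicle libraries 1 to 4 and 6.44%, 6.05%, 6.25% and 6.55% in TCDD libraries 1 to 4. With that share as a covariate 2 DEGs were left, *Cyp1a1* among them, while the log2 fold changes of the 12 lay between 1.13 and 10.52. The part of that share in the calls was not tested. The filter on low counts was passed only through the TCDD libraries by 5 of the 13, with *4931440P22Rik*, *Dclk3*, *Ecel1* and *Fmo2* among them.

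The promoters of the DEGs were read to show where the AHR core stood. Of the 13 DEGs, 9 had a promoter in the RefSeq table (GRCm38.p6, 250 bases before to 50 after the start), and 3 held GCGTG on either strand within it. Of all 32851 promoters in the table, 32.4% held the core, and of the 9405 genes tested that had a promoter 5263 did. Below are the 3 DEG promoters that held it and those of *Tiparp* and *Ahrr*, the feedback genes, each written 5′ to 3′ along its gene with the core or its reverse complement CACGC in capitals. The core began at base -54 from the start in *Cyp1a1* (chr9:57697363-57697662, plus strand), at -181 and -177 in *Selenbp1* (chr3:94932833-94933132, plus strand) and at -13, -7 and 8 in *Gsdme* (chr6:50261720-50262019, minus strand). It began at -170 in *Tiparp* (chr3:65528197-65528496, plus strand) and at -107, -82 and -27 in *Ahrr* (chr13:74292282-74292581, minus strand). No core was found in the windows of *Cyp1a2*, *Fmo2*, *Ecel1*, *Nqo1*, *Slc46a3*, *Ier3* or *Pkm*.
Cyp1a1: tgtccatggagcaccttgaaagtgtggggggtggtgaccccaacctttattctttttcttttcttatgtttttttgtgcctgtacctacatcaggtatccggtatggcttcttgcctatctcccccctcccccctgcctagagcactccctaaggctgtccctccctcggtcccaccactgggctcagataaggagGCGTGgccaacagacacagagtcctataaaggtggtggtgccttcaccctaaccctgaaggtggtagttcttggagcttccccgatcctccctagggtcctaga
Selenbp1: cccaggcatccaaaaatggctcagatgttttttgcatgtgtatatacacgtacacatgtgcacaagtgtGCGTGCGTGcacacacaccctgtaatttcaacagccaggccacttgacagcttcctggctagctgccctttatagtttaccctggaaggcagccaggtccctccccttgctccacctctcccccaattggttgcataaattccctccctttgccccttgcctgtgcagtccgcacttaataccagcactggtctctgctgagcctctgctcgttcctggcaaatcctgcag
Gsdme: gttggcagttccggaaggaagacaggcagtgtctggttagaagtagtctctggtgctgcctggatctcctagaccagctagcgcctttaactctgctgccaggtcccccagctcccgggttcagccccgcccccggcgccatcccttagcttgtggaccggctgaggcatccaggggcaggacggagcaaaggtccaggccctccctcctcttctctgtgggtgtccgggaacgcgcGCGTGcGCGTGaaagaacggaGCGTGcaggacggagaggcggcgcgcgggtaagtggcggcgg
Tiparp: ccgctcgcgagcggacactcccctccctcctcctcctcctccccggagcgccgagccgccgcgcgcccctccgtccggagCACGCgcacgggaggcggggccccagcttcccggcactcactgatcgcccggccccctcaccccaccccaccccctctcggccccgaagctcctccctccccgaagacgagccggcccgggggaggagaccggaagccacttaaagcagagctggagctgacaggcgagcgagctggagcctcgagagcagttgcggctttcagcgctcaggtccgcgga
Ahrr: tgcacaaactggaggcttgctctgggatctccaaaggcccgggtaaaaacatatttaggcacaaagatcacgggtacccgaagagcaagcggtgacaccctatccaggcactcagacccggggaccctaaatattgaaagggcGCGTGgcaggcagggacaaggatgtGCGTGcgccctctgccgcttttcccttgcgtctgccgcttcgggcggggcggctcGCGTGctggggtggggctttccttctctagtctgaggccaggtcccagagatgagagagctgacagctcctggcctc

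*Pkm*, the gene whose DRE is named in the label, encodes pyruvate kinase M, which makes pyruvate at the end of glycolysis. Its expression was 44.96, 55.3, 37.8 and 81.5 CPM (counts relative to the library size, scaled with TMM) in the vehicle libraries. With TCDD it was 169, 109.2, 113.99 and 126.5 CPM. All TCDD libraries lay above all vehicle libraries, with a log2 fold change of 1.24 (standard error 0.23) that did not pass the threshold (adjusted p = 0.128, edgeR's quasi-likelihood test). DESeq2 called it (log2 fold change 1.19, adjusted p = 0.00746). In the libraries labelled WT, vehicle gave 80.8, 68.7, 58.2 and 41.8 CPM and TCDD 38.9, 51.6, 62.6 and 29.3 CPM. There the log2 fold change was -0.49 (standard error 0.25), and the groups overlapped. At 8 h *Pkm* thus lay higher with TCDD under the label that names the DRE deletion, and not under WT. The difference in *Pkm* between the labels was called by neither edgeR nor DESeq2, and its cause was not tested. Each group is called by the label on its libraries. Counts per gene do not separate the isoforms of *Pkm*.

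*Cyp1a1* (ENSMUSG00000032315), which oxidizes aromatic hydrocarbons, had 1.76, 1.98, 3.44 and 3.49 CPM in the vehicle libraries. TCDD raised it to 4195, 3313, 3984 and 3527 CPM. The log2 fold change was 10.45 (standard error 0.32, adjusted p = 1.33e-08, edgeR's quasi-likelihood test), the largest of all genes tested. The spread between TCDD libraries was small beside this change, with 3754 ± 406 CPM against 2.67 ± 0.927 CPM (SD, n = 4). *Cyp1a2*, its neighbour on chromosome 9 and a constitutive liver enzyme, had 338, 249, 252 and 392 CPM with vehicle and reached 1753, 1012, 1359 and 1243 CPM. Its log2 fold change was 2.11 (standard error 0.21, adjusted p = 0.00274, edgeR's quasi-likelihood test). *Cyp1a1* thus went from near silence to high expression, while *Cyp1a2* was expressed in all vehicle libraries.

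**Figure D1:**
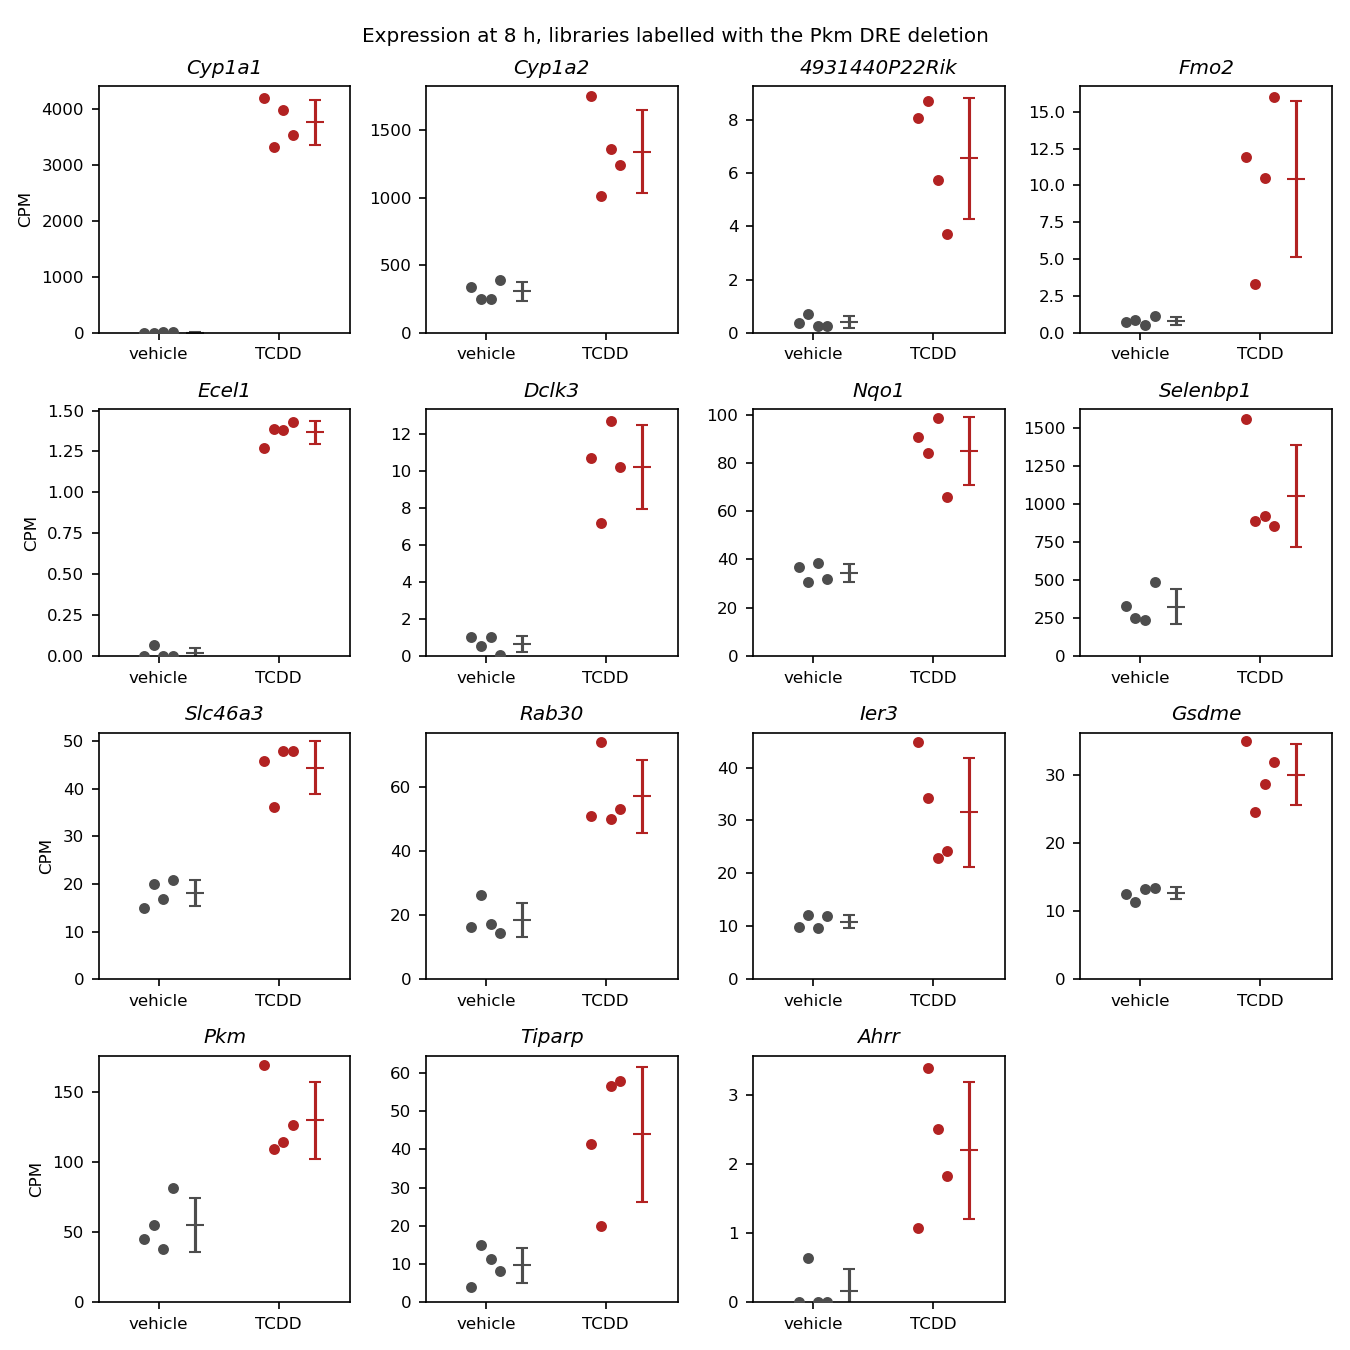
Expression after 8 h in the libraries labelled PkmΔDRE, in CPM on a separate linear axis from 0 for each gene, with 1 point per library and the mean ± SD of 4 libraries beside them (bars stop at 0). The first 12 panels are DEGs, where no TCDD point reaches down to a vehicle point, and the last 3 show *Pkm*, *Tiparp* and *Ahrr*.

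*Fmo2*, which oxidizes nitrogen and sulfur in foreign compounds, had 0.756, 0.8297, 0.501 and 1.14 CPM with vehicle and 11.95, 3.33, 10.5 and 15.98 CPM with TCDD. TCDD library 2 held the low *Fmo2* value, still above the highest vehicle library. Its log2 fold change was 3.68 (standard error 0.49, adjusted p = 0.0208, edgeR's quasi-likelihood test). *Nqo1*, which reduces quinones and answers to both AHR and NRF2, was at 36.7, 30.8, 38.5 and 31.7 CPM with vehicle and 90.7, 84.3, 98.8 and 66.1 CPM with TCDD. It rose by 1.30 on the log2 scale (standard error 0.19, adjusted p = 0.0337, edgeR's quasi-likelihood test).

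*Selenbp1*, which oxidizes methanethiol, had 329, 247, 235 and 489 CPM with vehicle and 1556, 886, 922 and 855 CPM with TCDD. TCDD library 1 stood apart from the other 3, and vehicle library 4 was the highest without TCDD. The log2 fold change was 1.69 (standard error 0.25, adjusted p = 0.0377, edgeR's quasi-likelihood test). *Selenbp1* has a close paralog, *Selenbp2*, and pairs that matched both would not have been counted, so its level is uncertain. *Slc46a3*, a lysosomal membrane transporter, went from 14.9, 19.98, 16.8 and 20.8 CPM with vehicle to 45.8, 36.2, 48.01 and 47.9 CPM with TCDD, a log2 fold change of 1.30 (standard error 0.20).

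Of the remaining DEGs, *Ecel1*, *Dclk3* and *4931440P22Rik* were close to silent without TCDD. *Ecel1*, an endothelin-converting enzyme-like protease best known from neurons, had 1 count over the 4 vehicle libraries and 87 over the TCDD libraries. The ratio of these counts, per counts sequenced, was 86.6 (exact 95% interval 15.1 to 3458, counting error only). *Dclk3*, a doublecortin-like kinase, had 1.01, 0.511, 1.002 and 0.0635 CPM with vehicle and 10.7, 7.21, 12.7 and 10.2 CPM with TCDD (log2 fold change 3.94, standard error 0.55). *4931440P22Rik* had 0.378, 0.702, 0.251 and 0.254 CPM with vehicle and 8.08, 8.71, 5.73 and 3.703 CPM with TCDD (log2 fold change 4.01, standard error 0.46). In all 3 the highest vehicle library lay below the lowest TCDD library.

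The other 3 DEGs were expressed in all vehicle libraries. *Rab30*, a GTPase of the Golgi apparatus, had 16.4, 26.4, 17.4 and 14.3 CPM with vehicle and 51.01, 74.1, 50.2 and 53.3 CPM with TCDD, a log2 fold change of 1.62 (standard error 0.25). *Ier3*, an early response gene linked to cell survival under stress, had 9.95, 12.1, 9.65 and 11.9 CPM with vehicle and 44.9, 34.2, 22.9 and 24.2 CPM with TCDD, a log2 fold change of 1.52 (standard error 0.24). *Gsdme*, a gasdermin that forms membrane pores once cleaved by caspase-3, had 12.5, 11.4, 13.2 and 13.3 CPM with vehicle and 35.1, 24.6, 28.6 and 31.9 CPM with TCDD, a log2 fold change of 1.25 (standard error 0.20). Their adjusted p-values were 0.0467, 0.0468 and 0.0479 from edgeR's quasi-likelihood test, the 3 nearest to the threshold from inside. Just outside it were *Lrp4*, *Htatip2* and *Pkm*.

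A list of 16 AHR targets was followed to see how much of the known response had appeared at 8 h. Of the 13 tested, edgeR called 3 (*Cyp1a1*, *Cyp1a2* and *Nqo1*) and DESeq2 also called *Cyp1b1*, *Ahrr* and *Tiparp*, and 10 had an unadjusted p below 0.05 with TCDD higher, where 4.40% of all genes did. All 13 had a positive log2 fold change with a median of 1.30, beside a median of 0.000578 over all genes tested. *Cyp1b1*, *Ahrr* and *Ugt1a6a* were among the 13 only through their TCDD counts, so that they had to differ. Of the other 10, 7 had an unadjusted p below 0.05 with TCDD higher, and their median was 0.95. *Cyp1b1*, an extrahepatic relative of *Cyp1a1*, had 4 counts over the vehicle libraries and 96 with TCDD, a ratio of 23.9 (exact 95% interval 9.03 to 89.4). *Ahrr*, the AHR repressor, had 10 counts with vehicle and 1.07, 3.38, 2.502 and 1.82 CPM with TCDD, a ratio of summed counts of 14.2 (exact 95% interval 7.52 to 30.3). For both genes, and for *Ecel1*, the vehicle counts all came from vehicle library 2, and the other 3 vehicle libraries had none. That library was the highest vehicle library in *Tiparp*, *Nfe2l2* and *Ugt1a6b*, and it was not in *Cyp1a1* or *Cyp1a2*.

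*Tiparp*, a mono-ADP-ribosyltransferase that limits AHR activity, had 4.09, 15.1, 11.3 and 8.25 CPM with vehicle and 41.3, 19.9, 56.4 and 57.95 CPM with TCDD. TCDD library 2 was close to vehicle library 2, which widened the error. The log2 fold change was 2.18 (standard error 0.42, adjusted p = 0.167, edgeR's quasi-likelihood test), and without that TCDD library *Tiparp* was a DEG. *Xdh*, xanthine dehydrogenase, separated by treatment with little spread, from 182, 193, 184 and 191 CPM to 259, 269, 311 and 332 CPM (log2 fold change 0.65, adjusted p = 0.662, same test). *Ugt1a6a*, a glucuronosyltransferase, had 0, 0, 0.438 and 0.381 CPM with vehicle and 2.14, 0.943, 3.62 and 1.04 CPM with TCDD. Its exons are shared with *Ugt1a6b*, which had 18.1, 25.98, 20.2 and 19.9 CPM and 16.96, 26.5, 26.5 and 27.2 CPM, so the split between them is uncertain. *Ugdh*, which supplies glucuronic acid, overlapped between the groups (log2 fold change 0.70, standard error 0.33), and so did *Cyp2a5* (0.38, standard error 0.22). The 3 targets not tested were *Aldh3a1*, with 0 counts in all 8 libraries (a count of 0 allows up to 3), *Cyp2s1*, with 2 counts in 1 vehicle library, and *Lekr1*, with 0.06296, 0.511, 0.125 and 0.1905 CPM against 0.401, 1.16, 1.45 and 2.14 CPM.

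The receptor and its partners were tested as a separate list of 13 genes, of which 12 passed the filter and 0 were called by edgeR or DESeq2. *Ahr* itself had a log2 fold change of 0.20 and *Arnt* of 0.01. The coactivator *Ep300* was the sole member with an unadjusted p below 0.05 (1.00, standard error 0.31). The chaperone gene *Hsp90aa1* had 32.2, 108.2, 98.8 and 93.2 CPM with vehicle and 176, 24.4, 212 and 277 CPM with TCDD, where TCDD library 2 lay below all vehicle libraries and the other 3 above them. The median of the list was 0.32.

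**Figure D2:**
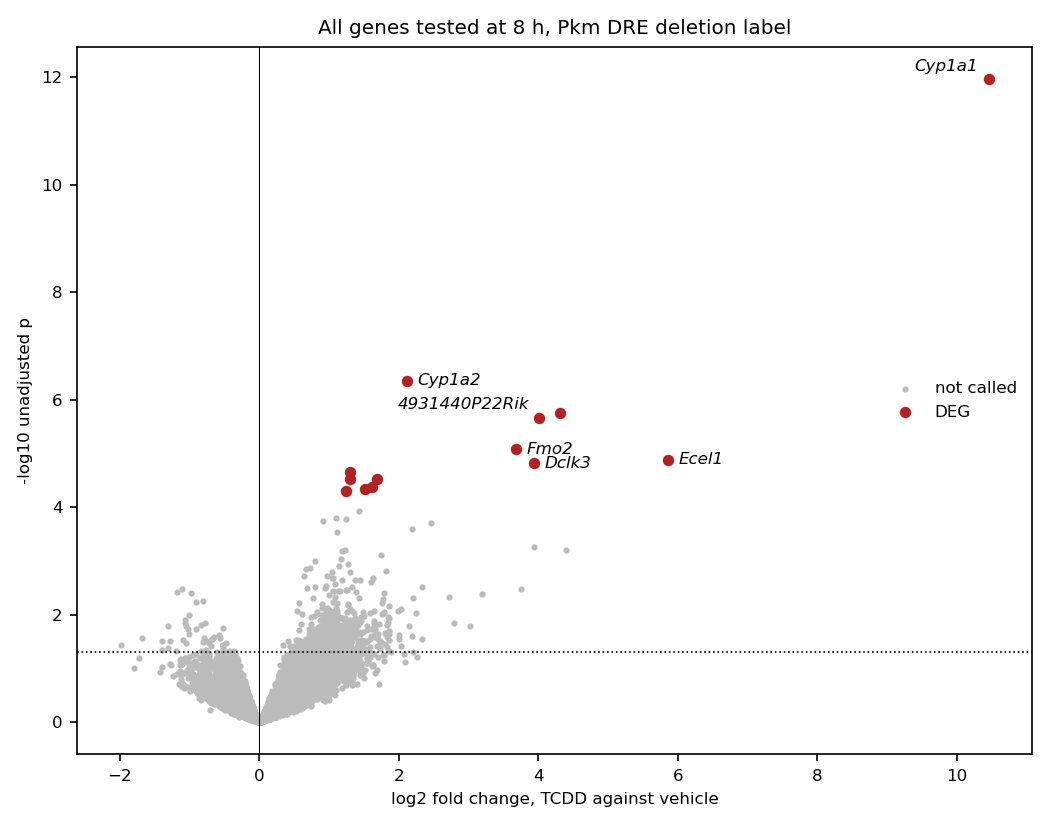
Log2 fold change with TCDD (x axis) and -log10 of the unadjusted p from edgeR (y axis) for all 12293 genes tested after 8 h under the label PkmΔDRE. The 13 DEGs, in red, lie on the right alone, and above the dotted line at 0.05 are 541 genes on the right and 46 on the left.

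With the DEGs included, 587 genes had an unadjusted p below 0.05 (4.78%), 541 of them higher with TCDD (4.40%) and 46 lower (0.374%). This count rested on single libraries. It was 273, 260 and 223 without vehicle library 1, TCDD library 3 or TCDD library 4, and 1411 and 1028 without vehicle library 2 or TCDD library 2. With the no-gene share as a covariate it was 175. Of the genes among the 587 that also changed 1.5-fold, 93.7% were higher, and this share was 71.4% once the GC trend of each library was removed. The genes higher with TCDD had a median GC content of 43.3% and a median exonic length of 7159 bases. The genes lower had medians of 54.3% and 3590 bases, and all genes tested 49.8% and 4298 bases. The direction of these weaker changes therefore moved with base composition and length, whose part was not tested for single genes. Of the 13 DEGs, 10 were also called after the GC trend was removed, all except *Nqo1*, *Rab30* and *Gsdme*.

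Among genes that missed the threshold, separated the groups completely and had at least 1 CPM on average, the 10 with the smallest p were followed in each direction. Those higher were *Lrp4*, *Htatip2*, *Pkm*, *Arl6ip5*, *Gas1*, *Tiparp*, *Tbc1d8*, *Pmm1*, *Mbp* and *Il1r1*. They missed it by edgeR, while DESeq2 called all 10. *Lrp4*, a receptor of the LDL receptor family, had 9.82, 12.6, 10.6 and 9.84 CPM with vehicle and 21.6, 24.4, 33.6 and 35.8 CPM with TCDD (log2 fold change 1.43, adjusted p = 0.106, edgeR's quasi-likelihood test). *Htatip2*, an oxidoreductase, had 71.5, 51.8, 80.05 and 94.04 CPM and 213, 133.6, 144.6 and 154 CPM (1.11, adjusted p = 0.128). *Pmm1*, a phosphomannomutase, had 22.2, 19.4, 25.7 and 43.2 CPM and 95.9, 60.1, 54.3 and 51.3 CPM (1.23, adjusted p = 0.337). In *Htatip2*, *Pmm1* and *Pkm* alike, vehicle library 4 and TCDD library 1 were the highest of their groups. *Il1r1*, the interleukin-1 receptor, had 4.97, 15.3, 6.89 and 5.14 CPM and 20.03, 23.2, 27.7 and 36.5 CPM (1.75, adjusted p = 0.388). *Arl6ip5*, a protein of the endoplasmic reticulum, had 209, 177, 210.4 and 285 CPM and 466, 365, 426 and 406 CPM (0.92, adjusted p = 0.13).

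With lower expression 0 genes passed the threshold by edgeR or DESeq2, while with no filter on low counts edgeR called 2, *Ablim3* among them, and with 1 surrogate variable 1. The 10 that separated completely with TCDD lower were *Ablim3*, *Mid1*, *Endod1*, *Avpr1a*, *Micall2*, *Fhit*, *Npy*, *Cox7a1*, *Pak6* and *Plin4*, with log2 fold changes from -1.30 to -0.52. *Ablim3*, an actin-binding protein, had 14.5, 12.1, 16.8 and 20.1 CPM with vehicle and 7.34, 3.55, 6.85 and 10.4 CPM with TCDD (adjusted p = 0.785, edgeR's quasi-likelihood test). *Mid1*, an E3 ubiquitin ligase, had 7.62, 8.23, 6.33 and 7.302 CPM and 3.74, 3.05, 3.42 and 4.74 CPM (adjusted p = 0.813). *Avpr1a*, the vasopressin receptor of hepatocytes, had 15.9, 19.3, 16.97 and 10.5 CPM and 8.55, 9.82, 8.63 and 6.69 CPM, and *Plin4*, a lipid droplet coat protein, had 37.9, 35.2, 39.02 and 40.6 CPM and 29.4, 21.3, 30.6 and 25.6 CPM. In each of these 4 genes the highest TCDD library lay below the lowest vehicle library.

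NRF2, encoded by *Nfe2l2*, directs the antioxidant response and is itself an AHR target. *Nfe2l2* had 56.2, 95.9, 54.99 and 35.4 CPM with vehicle and 105.2, 154, 131.2 and 124.6 CPM with TCDD, a log2 fold change of 1.09 (adjusted p = 0.76, edgeR's quasi-likelihood test). Of 18 NRF2 regulators and targets tested, 1 was called (*Nqo1*), where 0.106% of all genes were. An unadjusted p below 0.05 with TCDD higher was seen in 4, where 4.40% of all genes had it, and the median was 0.22. These were *Nqo1*, *Nfe2l2*, the carbonyl reductase *Cbr3* (0.94) and the cystine transporter *Slc7a11* (1.14). *Nqo1* and *Nfe2l2* were also on the list of AHR targets, and in *Cbr3* and *Slc7a11* the groups overlapped. *Hmox1* and *Gclm*, genes often used as NRF2 readouts, had log2 fold changes of 0.40 and 0.20 with unadjusted p-values of 0.118 and 0.297. Of 21 glutathione S-transferases and other genes tested as antioxidant enzymes, 0 were called by edgeR and 1 by DESeq2. That gene was *Pmm1*, which the list holds although it is a phosphomannomutase. In 3 (*Pmm1*, *Gsta1* and again *Cbr3*) the unadjusted p was below 0.05 with TCDD higher, beside 4.40% of all genes. The median was 0.03. *Gsta1*, the transferase subunit counted among AHR targets, had 79.3, 32.7, 45.2 and 38.5 CPM with vehicle and 117.1, 100.9, 77.7 and 52.8 CPM with TCDD (0.81, standard error 0.31), and the groups overlapped.

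Central carbon metabolism showed 1 gene that separated by treatment. Of 23 glycolysis genes tested, edgeR called 0 and DESeq2 called *Pkm*, which was the sole one with an unadjusted p below 0.05 by edgeR, and 7 had a positive log2 fold change, with a median of -0.14. Other enzymes of the pathway overlapped between the groups. *Gapdh*, which acts upstream, had 3596, 2268, 3731 and 6979 CPM with vehicle and 4989, 2534, 3506 and 4039 CPM with TCDD, and *Ldha*, which turns pyruvate into lactate, had 997, 783, 1106 and 2171 CPM and 1408, 705, 1022 and 1295 CPM. Vehicle library 4 was the highest library in both. Among 8 pentose phosphate, 25 tricarboxylic acid (TCA) cycle, 8 gluconeogenesis and 13 serine and one-carbon genes tested, 0 were called by edgeR and 0 had an unadjusted p below 0.05. Their medians were 0.04, -0.03, -0.11 and -0.08. DESeq2 called none of the members of these 4 lists.

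The same held for 11 bile acid genes, 15 genes of fatty acid oxidation, 14 of cholesterol synthesis, 19 CYP2 and CYP3 drug-metabolizing genes, 22 cytoskeleton genes, 13 of the unfolded protein response, 15 of the acute phase and 11 of the cell cycle. None was called by edgeR or DESeq2 and none had an unadjusted p below 0.05. *Cyp2b10*, the marker target of the receptor CAR, had 900.4, 662, 501 and 719 CPM with vehicle and 1014, 602, 395 and 448 CPM with TCDD. Of 12 fatty acid synthesis genes, *Elovl6*, an elongase, had 10.1, 15.3, 15.4 and 13.3 CPM and 32.6, 17.5, 34.2 and 46.97 CPM (log2 fold change 1.28, adjusted p = 0.496, edgeR's quasi-likelihood test), and DESeq2 called it. Of 13 immediate early genes *Ier3* was called, while *Fos*, *Jun* and *Egr1* had log2 fold changes of 0.14, -0.03 and -0.49. Of 13 circadian clock genes, *Clock* alone had an unadjusted p below 0.05 (0.96), where TCDD library 2 lay below all vehicle libraries.

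**Figure D3:**
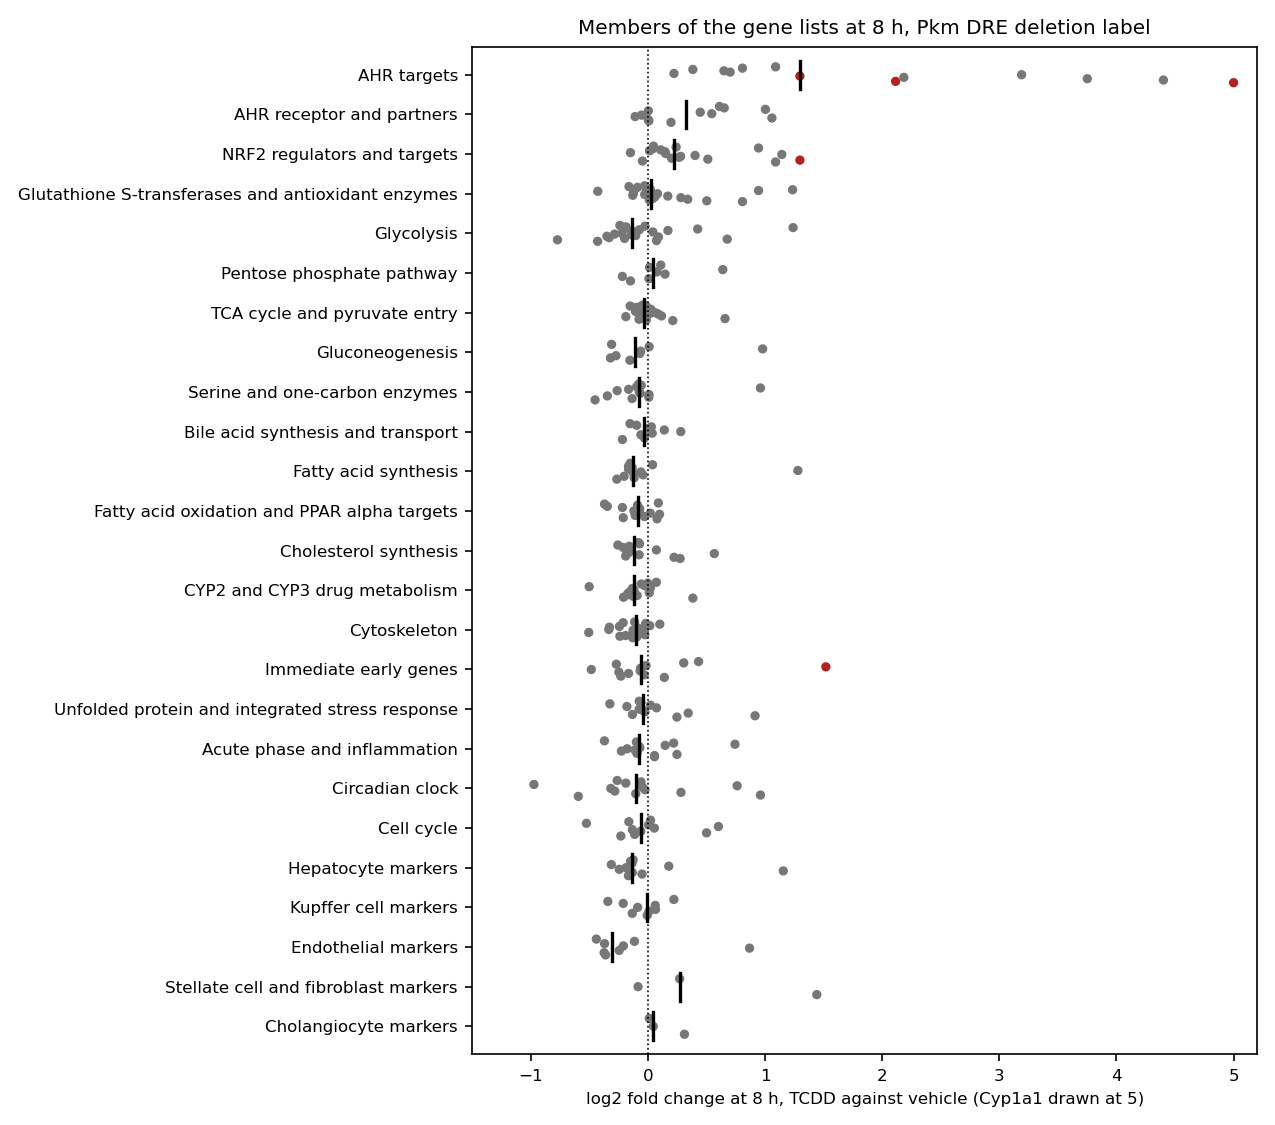
Log2 fold change with TCDD after 8 h under the label PkmΔDRE (x axis) for the tested members of each gene list (1 row per list, 1 point per gene, red for DEGs), with a black bar at the median of the list and a dotted line at the median of all genes. AHR targets spread to the right with a median of 1.30, or 0.95 without the 3 that passed the filter only through TCDD. The medians of glycolysis and the other metabolic lists lie between -0.14 and 0.04. A gene held by 2 lists appears in both.

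The cell type given by the labels was checked against markers. The 11 hepatocyte markers matched, led by *Alb*, summed to 90686 to 113442 CPM with vehicle and 87045 to 99179 CPM with TCDD. Kupffer cell markers (9 of 9 detected) summed to 118.8 to 189 CPM and 102.9 to 208 CPM, and endothelial markers (8 of 8) to 142.2 to 438 CPM and 136.5 to 359 CPM, so the groups overlapped. Cholangiocyte markers (6 of 6) summed to 18.2 to 39.6 CPM and 19.9 to 37.3 CPM, with *Krt7*, *Krt19* and *Cftr* too low to be tested. The 5 leukocyte markers never passed 1.02 CPM in sum, with *Cd3e* and *Nkg7* at 0 in all vehicle libraries. All stellate cell and fibroblast markers were detected (8 of 8), though *Des*, *Lrat*, *Col1a1*, *Col3a1* and *Lum* were too low to be tested. Their sum over the 8 was 15.4 to 48.4 CPM with vehicle and 44.5 to 99.4 CPM with TCDD. That shift came from *Reln*, which had 26.004, 37.98, 35.5 and 12.7 CPM with vehicle and 41.4, 85.8, 87.7 and 87.5 CPM with TCDD (log2 fold change 1.44, adjusted p = 0.68, edgeR's quasi-likelihood test). Its groups did not overlap, and *Reln* was called by DESeq2 and with 1 surrogate variable. *Dcn*, by contrast, had 2.33, 8.23, 1.57 and 1.02 CPM and 2.34, 10.4, 1.65 and 1.17 CPM. In such bulk samples fewer cells of a type and less RNA per cell cannot be told apart. Their part in the DEGs was not tested.

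The response under PkmΔDRE was next set beside that of the 8 libraries labelled WT at the same time. There, 4640 of 12392 genes were DEGs (37.4%), 2950 higher (23.8%) and 1690 lower (13.6%). The share of unique pairs on no gene moved with treatment there too. It was 4.89% to 5.99% with vehicle, and 21.9%, 8.64%, 8.36% and 10.7% in TCDD libraries 1 to 4. The first of these libraries, labelled WT, also had 48.0% of its pairs on lines that name no gene and 23.6% unmapped. Without it 5113 genes were DEGs, 3120 higher and 1993 lower, and leaving out any 1 of the 8 gave between 3452 and 5113. The part of these shares in the DEGs was not tested. Of the 13 DEGs, 11 were tested under WT, all with a positive log2 fold change, and 8 were DEGs there, where 23.8% of genes tested were called higher. Without the first TCDD library 12 were tested and 9 called. *Cyp1a1* changed by 9.55 under WT, beside 10.45 under PkmΔDRE. *Tiparp* changed by 2.99 under WT, beside 2.18. *Selenbp1* and *Ier3* were DEGs under PkmΔDRE and had log2 fold changes of 0.15 (standard error 0.19) and 0.29 (standard error 0.22) under WT. *Ecel1* was too low to be tested under WT, at 0, 0, 0 and 0 CPM and 0.0936, 0.0641, 1.47 and 1.77 CPM.

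An interaction fitted to the 16 libraries asked whether the response differed by label. Of 13333 genes, 0 passed with edgeR, 2114 had an unadjusted p below 0.05 (15.9%) and DESeq2 called 3 (*Per3*, *Ralgapa2* and the predicted gene Gm16536), all with a lower response under PkmΔDRE. Of the genes past an unadjusted p of 0.05 and a difference of 1.5-fold, 27.9% had the higher response under PkmΔDRE, with RLE scaling 40.6% did, and without the first TCDD library labelled WT 51.25% did. The count of 2114 became 1081 without WT TCDD library 3, 1096 and 1186 without PkmΔDRE vehicle library 2 or TCDD library 1, and 3988 without PkmΔDRE vehicle library 4. *Pkm* had the smallest unadjusted p among the genes with a higher response, a difference of 1.59 (standard error 0.35, unadjusted p = 0.000236, adjusted p = 0.292, edgeR's quasi-likelihood test). *Selenbp1* was next, at 1.41 (standard error 0.33, adjusted p = 0.292, same test). Its WT libraries had 579, 573, 576 and 511 CPM with vehicle and 573, 589.7, 452 and 933 CPM with TCDD, which overlapped. *Ier3* differed by 1.11 (standard error 0.32), *Pmm1* by 1.10 (standard error 0.32) and *Gsta1* by 1.18 (standard error 0.38). On the other side, the clock gene *Per3* differed by -2.40 (standard error 0.51), with 3.34, 5.87, 5.64 and 5.397 CPM and 2.67, 4.38, 3.95 and 5.39 CPM under PkmΔDRE.

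**Figure D4:**
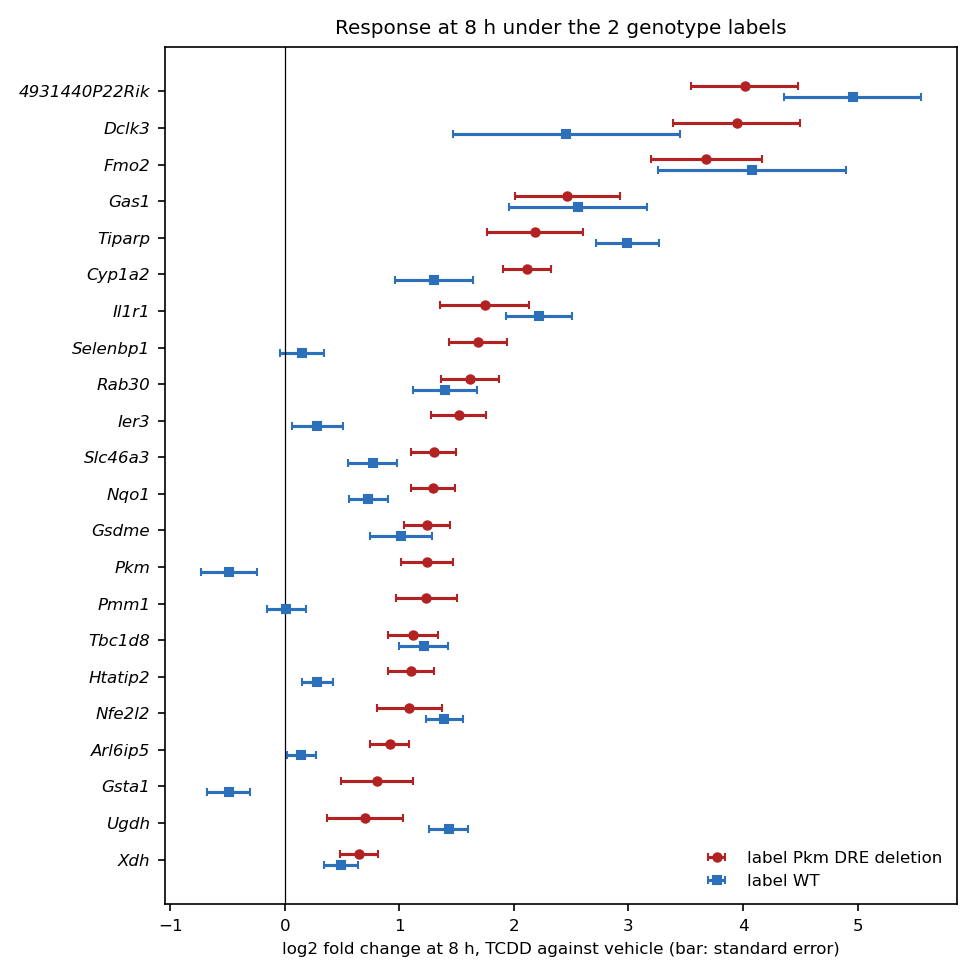
Log2 fold change with TCDD after 8 h (x axis, bars are standard errors) of 22 genes named in the text, under the label PkmΔDRE (red circles) and the label WT (blue squares). *Pkm* lies at 1.24 and -0.49, *Selenbp1* at 1.69 and 0.15, and *Tiparp* at 2.18 and 2.99. *Cyp1a1* is left out for its size, and *Ecel1* was not tested under WT.

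Under PkmΔDRE the 13 genes were then followed through the other times, which played no part in choosing them. At 2 and 4 h edgeR called 0 of them and 0 of all genes higher, with 13.9% and 0.481% of genes higher at an unadjusted p below 0.05. At 4 h 11 were tested, all with a positive log2 fold change and a median of 1.06, led by *Cyp1a1* (4.99), *4931440P22Rik* (2.70) and *Dclk3* (2.67). At 12 h 3 were DEGs (*Cyp1a1*, *Cyp1a2* and *Selenbp1*), which were all the genes called higher at that time (3 of 12485, 0.0240%). At 24 h the 2 called (*Cyp1a1* and *Cyp1a2*) were again all there were (2 of 12481, 0.0160%). At 48, 72, 96 and 120 h 8, 7, 4 and 6 of them were DEGs, where 0.334%, 0.808%, 0.0793% and 0.417% of genes tested were called higher.

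The 13 genes did not follow 1 course. *Cyp1a2* went from a log2 fold change of 1.06 after 4 h and 2.11 after 8 h to 3.47 after 24 h and 6.56 after 72 h. *Selenbp1* went from 1.69 at 8 h to 2.72 at 12 h and 2.71 at 48 h, and *Slc46a3* from 1.30 to 2.71 at 72 h. *Cyp1a1*, by contrast, stood near its peak after 8 h (10.45, beside 10.94 after 48 h) and was at 6.26 after 120 h. Another course was that of *4931440P22Rik*, *Fmo2* and *Rab30*, which were highest at 8 h, at 4.01, 3.68 and 1.62. By 24 h they had log2 fold changes of 0.65, 0.62 and 1.13, and they were DEGs at no other time under this label. *Ier3* (1.52) and *Ecel1* (5.86, tested at 2 times) were also highest at 8 h and DEGs then alone. Since the 13 were chosen at 8 h, a highest value there is in part the choice. All TCDD libraries lay above all vehicle libraries at 8 of the 9 times in *4931440P22Rik*, at 4 in *Rab30* and at 3 in *Fmo2*. Under the label WT, 3, 6, 9 and 7 of the 13 were DEGs at 12, 24, 96 and 120 h, where 0.0321%, 0.272%, 10.1% and 0.958% of genes tested were called higher. At 2, 4, 48 and 72 h edgeR called 0 of the 13, where 0%, 0%, 0.00763% and 0% of genes were called higher and 1.12%, 8.83%, 1.19% and 1.34% were higher at an unadjusted p below 0.05. Under WT *4931440P22Rik* and *Fmo2* were also highest at 8 h, at 4.96 and 4.08, and *Rab30* at 12 h (1.73). *Pkm* had a log2 fold change of -0.34 after 4 h and 1.24 after 8 h under PkmΔDRE. It was largest after 12 h (1.68), and it was 1.34 after 24 h, 0.97 after 48 h and 0.36 after 72 h.

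**Figure D5:**
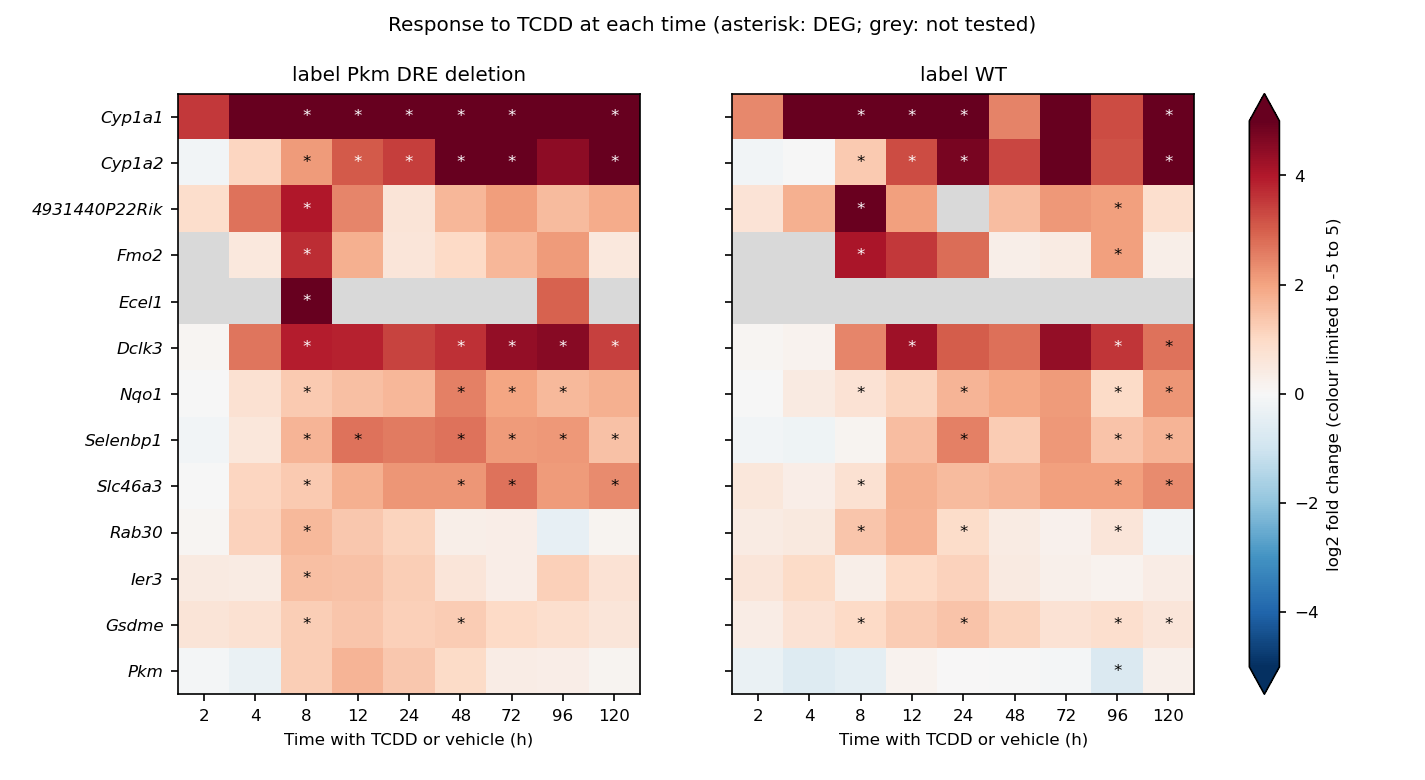
Log2 fold change with TCDD (colour, limited to 5 in either direction) of 12 DEGs of 8 h and *Pkm* at each of 9 times (x axis, in h) under the label PkmΔDRE (left) and the label WT (right), with an asterisk for a DEG and grey where counts were too low to test. The left panel has no asterisk at 2 or 4 h and 12 at 8 h, and *4931440P22Rik*, *Fmo2*, *Ecel1*, *Rab30* and *Ier3* have theirs at 8 h alone.

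The steps from 4 to 8 h and from 8 to 12 h were fitted as interactions under this label. Between 4 and 8 h, 0 of 13174 genes passed by edgeR or DESeq2, and 312 had an unadjusted p below 0.05 (2.37%). That count was 539, 526 and 518 without vehicle library 1, 2 or 3 of 4 h, 480 without vehicle library 2 of 8 h, and below the full count by over 1.5 times without vehicle library 4 of 4 h. The smallest p was that of *Cyp1a1*, whose response was larger at 8 h by 5.39 on the log2 scale (standard error 1.26, unadjusted p = 0.000557, adjusted p = 0.998, edgeR's quasi-likelihood test). *Selenbp1* differed by 1.06 (standard error 0.40) and *Pkm* by 1.49 (standard error 0.70), with unadjusted p-values of 0.0171 and 0.0484 from the same test. Between 8 and 12 h, 0 of 13342 genes passed by edgeR, 1 by DESeq2 (*Neat1*), and 628 had an unadjusted p below 0.05 (4.71%), which leaving out 1 library moved to between 228 (TCDD library 1 of 12 h) and 3407 (TCDD library 2 of 12 h). The smallest p was that of the nuclear long non-coding RNA *Neat1*, whose response was larger at 8 h by 1.52 (standard error 0.28, adjusted p = 0.596, edgeR's quasi-likelihood test). *Neat1* had 86.4, 116.7, 108.05 and 62.99 CPM with vehicle and 144.8, 129.2, 153 and 143.2 CPM with TCDD at 8 h. *Cyp1a2* and *Selenbp1* differed in the other sense, at -0.98 and -1.05.

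Across the 8 libraries, the treatment groups overlapped on the first 2 principal components. These held 36.8% and 28.1% of the variance, and vehicle library 4 lay farthest out on the first. Correlations between libraries of the same treatment had a median of 0.953 and between treatments 0.958. The biological coefficient of variation was 0.338 over the genes tested. Leaving out any 1 library lowered the number of DEGs, to between 2 (vehicle library 3) and 10 (vehicle library 4). *Cyp1a1* and *Cyp1a2* were called without any one of the 8 libraries.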

How the data were processed

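RNA-Seq of primary mouse hepatocytes was analysed from deposited count tables, each of a single library. Per the labels and the submitters' processing notes, the authors checked reads with FastQC 0.11.3, trimmed them with Trimmomatic 0.39, aligned them to GRCm39 with STAR 2.7 and listed DESeq2. The deposited values are counts of uniquely mapped pairs per gene, with no normalization, and the unstranded column was used. The files hold 55359 genes, of which 52083 received a symbol from GENCODE M21. Lines that name no gene held 23.9% to 26.8% of the pairs of the 8 libraries and were left out.

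edgeR 4.0.16 (R 4.3.3) scaled the counts with TMM and filtered them (filterByExpr, minima of 10 counts per library and 15 in total), and genes were tested with its robust quasi-likelihood test on the 8 libraries, unpaired, with Benjamini-Hochberg adjustment over all genes tested. DEGs passed an adjusted p of 0.05 and changed at least 1.5-fold. Interactions used the 16 libraries of both labels at 8 h, or of 8 h and a neighbouring time. Standard errors were taken from the fold change and its F statistic. CPM use TMM across all libraries. Intervals and floors cover counting error only.

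Named genes were the DEGs, *Pkm*, the AHR targets, the genes the study's text names, the 10 genes of smallest p in each direction that were not DEGs but did not overlap and had at least 1 CPM, up to 3 members of each list with the smallest p, and the 5 genes of smallest p in each direction of an interaction, without predicted genes. Genes were also named where a sentence needed them, chosen after their values were seen. Of the 13 DEGs, 1 is counted but not reported here. The libraries and lists were chosen with earlier results of these data known. Alternatives were RLE scaling, the DESeq2 1.42.0 Wald test, no filter, no fold change threshold, wider fits, 1 surrogate variable (sva 3.50.0, limma 3.58.1), covariates, a posterior probability of at least 0.8, removal of the GC trend and leaving out each library, which for the WT label was added after the data were seen. The scripts were tested on simulated data. Promoters came from the RefSeq table of GRCm38.p6, a build other than that of the counts. Tables and figures used Python 3.11.15 and matplotlib 3.10.9, with version 1.17.8 of data.table.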

Additional observations from a re-analysis of the deposited data

Results flagged for a closer look

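Among 97 groups of 4 libraries examined for a library far from the other 3 (Dixon's criterion), 8 were flagged. Chance flags about 1 group in 20, but that rate does not hold for a gene seen in 1 library alone, which is always flagged. In the vehicle libraries, 3 of the 8 were such genes, *Ahrr* (0.638 CPM), *Cyp1b1* (0.255 CPM) and *Ecel1* (0.0638 CPM), seen in library 2 and at 0 in the other 3. Another was *Cyp2s1*, seen in vehicle library 1 alone (0.126 CPM). *Selenbp1* was at 1556 CPM in TCDD library 1, against 855 to 922 CPM in the others, and *Ugt1a6b* was at 16.96 CPM there, against 26.5 to 27.2 CPM. *Rab30* was at 74.1 CPM in TCDD library 2, against 50.2 to 53.3 CPM. Vehicle library 4 had 19070548 counts on genes, against 16011765 to 16491763 in the other vehicle libraries.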

How the results depend on the processing

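No paired analysis was possible because the labels give no replicate number that links a vehicle library to a TCDD library. The 13 DEGs became 37 with the DESeq2 Wald test, 170 with no filter on low counts (168 higher, 2 lower), 32 with 1 surrogate variable (31 higher), 6 with the unmapped share as a covariate, 5 in 1 fit of all libraries with the label and 2 when the no-gene share of unique pairs entered as a covariate. With RLE scaling there were 9, with both labels in 1 fit 16, by posterior probability 14 and with the GC trend removed 14. All 13 were among those called by DESeq2, with no filter, with the surrogate variable and by posterior probability. Without 1 replicate, 2 to 10 were called. Of 19 alternatives, *Cyp1a1* was called in 19, *Cyp1a2* in 17 and *4931440P22Rik* in 15. Another 9 DEGs were called in 7 to 10, and *Nqo1*, *Ecel1*, *Ier3* and *Gsdme* in none that left out a library. *Pkm* was called in 5. For the difference between labels, 0 became 3 with DESeq2 and 350 with no filter (45 higher, 305 lower), and it stayed at 0 whichever replicate was left out. For 8 h against 4 h it was 0 throughout. None of the 13 DEGs changed sign in any of these settings. Genes that were not called could, as *Gapdh* did, with log2 fold changes from -0.34 to 0.48. The cause of the shifts was not tested. A gene that was not called is not shown to be unchanged.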

Other observations

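*Fhit*, which encodes a dinucleoside triphosphate hydrolase, was among the genes of smallest p in both steps of time. Its expression after 8 h was 2.64, 2.94, 3.44 and 3.43 CPM with vehicle and 1.07, 1.89, 1.32 and 1.62 CPM with TCDD. Its response differed from that at 4 h by -1.75 (standard error 0.56) and from that at 12 h by -1.89 (standard error 0.60) on the log2 scale, with the same 8 h libraries in both and neither past the adjusted threshold. *Ppp1r3c*, a glycogen-targeting subunit of protein phosphatase, had 7.996, 4.28, 5.26 and 6.98 CPM with vehicle and 3.14, 3.16, 2.24 and 4.48 CPM with TCDD after 8 h, and its response differed from that at 12 h by -1.32 (standard error 0.42).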
